A study of Mus musculus with 24 samples.

Results

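The Slc22a and Slco genes encode membrane carriers for organic anions, organic cations, carnitine, urate, prostaglandins and bile acid conjugates. Members were taken as all genes whose annotated symbol begins with Slc22a or Slco, each read by its brightest probe over all arrays. There were 27 such genes among 16593 named genes, 16 of them Slc22a and 11 Slco, with 42 of the 25697 probes on the array. Total RNA of liver, kidney, gonadal adipose tissue and aorta was hybridised to 24 Illumina bead arrays, 3 per genotype and tissue. The groups were Glo1+/- and WT mice of strain C57BL/6J, aged 36 weeks, labelled female and fed standard chow. Glo1+/- mice carried 1 knockout allele of Glo1, which encodes the methylglyoxal-detoxifying enzyme glyoxalase 1. Their line was re-derived by transfer into WT females. Nothing in the labels says that replicates were separate animals, so p-values measure the spread between these samples, which may be technical.

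Uptake carriers of the SLC22 family sit mainly on the plasma membrane of kidney tubule cells, hepatocytes and gut cells, and are grouped by substrate into organic anion transporters (OAT), organic cation transporters (OCT) and carnitine or zwitterion transporters (OCTN). Members of the SLCO family, the organic anion transporting polypeptides (OATP), carry bulky anions such as bile acids, bilirubin conjugates, thyroid hormones, prostaglandins and many drugs. In the proximal tubule, basolateral OAT uptake from blood is the entry step of organic anion secretion. In the liver, basolateral OATP uptake from sinusoidal blood precedes metabolism and biliary export.

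Promoter windows of 3 members are printed, for genes of the tissue pattern and the genotype result described below, and these 3 are also the only member windows that held the motif marked in them. Slc22a8 was the transporter called between genotypes, Slc22a6 its chromosome 19 neighbour with the widest kidney-to-liver gap, and Slco1b2 the liver counterpart. Windows run from 250 bases before to 50 bases after the annotated start, were taken from RefSeq on GRCm38.p6, and lie on the plus strand at chr19:8592932-8593231, chr19:8617746-8618045 and chr6:141629268-141629567. Capitals mark GTTAAT, a core of the recognition motif of the HNF1 homeodomain factors, which was searched on both strands (ATTAAC on the other).
Slc22a8: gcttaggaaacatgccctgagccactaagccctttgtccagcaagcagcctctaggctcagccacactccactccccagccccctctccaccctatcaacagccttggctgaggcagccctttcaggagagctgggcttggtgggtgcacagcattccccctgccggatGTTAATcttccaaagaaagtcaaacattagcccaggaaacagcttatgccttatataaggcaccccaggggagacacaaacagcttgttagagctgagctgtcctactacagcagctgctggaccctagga
Slc22a6: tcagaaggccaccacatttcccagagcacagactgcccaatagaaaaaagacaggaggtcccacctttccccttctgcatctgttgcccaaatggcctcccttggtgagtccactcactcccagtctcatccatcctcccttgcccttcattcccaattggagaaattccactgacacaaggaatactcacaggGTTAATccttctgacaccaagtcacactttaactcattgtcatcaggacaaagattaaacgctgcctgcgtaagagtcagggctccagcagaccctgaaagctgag
Slco1b2: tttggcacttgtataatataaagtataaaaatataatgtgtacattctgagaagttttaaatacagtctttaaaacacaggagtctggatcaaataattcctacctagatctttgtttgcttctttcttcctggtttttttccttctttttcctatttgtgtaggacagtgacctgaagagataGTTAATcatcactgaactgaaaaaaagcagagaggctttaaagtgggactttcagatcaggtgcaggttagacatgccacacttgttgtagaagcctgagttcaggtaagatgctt
The motif began at position -81 in the Slc22a8 window, at -56 in that of Slc22a6 and at -66 in that of Slco1b2, each on the strand of the gene. RefSeq windows were found for 24 of the 27 members, and not for Slc22a7, Slc22a21 and Slco3a1. Of the 29 member windows, 3 held the motif (10.3%), against 7.1% of all 32851 windows of 300 bases. The windows of the kidney-high Slc22a22, Slc22a12, Slc22a13 and Slc22a2 and of the liver-high Slco2b1, Slco2a1 and Slco1a4 did not hold it. A match describes the letters only.

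Many members lie in tandem on the chromosomes. On chromosome 6, Slco1c1, Slco1b2, Slco1a4, Slco1a1, Slco1a6 and Slco1a5 follow each other with at most 1 protein-coding gene between neighbours. On chromosome 19, Slc22a8 and Slc22a6 are direct neighbours, as are Slc22a19 and Slc22a26. On chromosome 11, Slc22a5, Slc22a21 and Slc22a4 are adjacent, and on chromosome 9 Slc22a14 and Slc22a13 are.

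Values are log2 probe values with a floor near 8, and array medians lay between 8.22 and 8.25. Libraries of the same tissue correlated across probes at 0.986 to 0.996 in liver and kidney and at 0.924 to 0.994 in adipose tissue and aorta. Some libraries went against their labels. Xist, which marks female cells, lay at the floor in every library (8.10 to 8.25), and the Y-linked Eif2s3y lay between 10.33 and 11.28, although all mice were labelled female. The Y-linked Kdm5d and Uty read 8.40 to 8.81 and 8.27 to 8.58, and Usp9y was at the floor. Glo1 was lower in Glo1+/- liver (-0.88, limma adjusted p = 0.00314) and kidney (-0.88, adjusted p = 0.0223), and missed the threshold in adipose tissue (-0.90, 0.239) and aorta (-0.63, 0.948). In aorta, Glo1 read 10.61, 11.08 and 11.90 in Glo1+/- and 12.17, 12.08 and 11.22 in WT libraries, so the libraries labelled 3 overlapped. The library labelled Glo1+/- aorta 3 also stood apart by tissue: its mean over 8 brown adipocyte markers was 8.80, against 12.54 to 12.86 in the other aorta libraries, with Ucp1 at 8.14. WT aorta 3 carried T cell and thymocyte markers (mean of 8 genes 10.67, against 8.201 to 8.503), WT aorta 2 skeletal muscle markers (11.81, against 8.497 to 8.827), and Glo1+/- adipose 3 epididymis markers (12.46, against 8.14 to 8.36). Adipose libraries labelled 1 carried the most kidney transcripts and WT adipose 1 and 2 the most liver transcripts, with values given beside the adipose results. Other adipose libraries held some too. The hepatocyte gene Apoa2 read 14.30, 11.87 and 9.45 in Glo1+/- and 14.92, 14.79 and 12.85 in WT adipose libraries 1 to 3. The proximal tubule gene Slc34a1 read 9.84 in Glo1+/- adipose 3 and 9.75 in WT adipose 2, against 8.22 in Glo1+/- adipose 2 and 8.08 in WT adipose 3.

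Kidney held the broadest set of members and aorta the narrowest. A gene was counted as measured in a tissue when its probe averaged at least 9 over the 6 libraries. By this rule 16 of 27 members were measured in kidney, against 32.5% of all named genes. Liver had 8 (32.4% of all genes), adipose tissue 5 (33.4%) and aorta 3 (32.6%). Slc22a5, Slco2a1 and Slco2b1 were measured in all 4 tissues, and 18 members in at least 1. Just inside the line lay Slco2a1 in aorta, with a mean of 9.09, and just outside it Slc22a6 in adipose tissue, with 8.99. The 9 members measured in no tissue were Slc22a14, Slc22a17, Slc22a21, Slc22a26, Slco1a1, Slco1a5, Slco1a6, Slco1c1 and Slco4c1. Of these, Slc22a17 reached 8.93 in a kidney library and Slc22a26 reached 8.73. Slco1a1, a carrier known as male-predominant in mouse liver, read 8.12 to 8.28 in liver and 8.10 to 8.19 in kidney. It had 1 probe, and at the floor missing RNA and an unresponsive probe cannot be told apart. The listed hepatocyte markers Fgb and Tat also read near the floor in liver (8.20 to 8.49 and 8.15 to 8.37). Only 2 of the 6 tandem Slco1 genes on chromosome 6 were measured anywhere, Slco1b2 and Slco1a4, and both in liver.

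**Figure D1:**
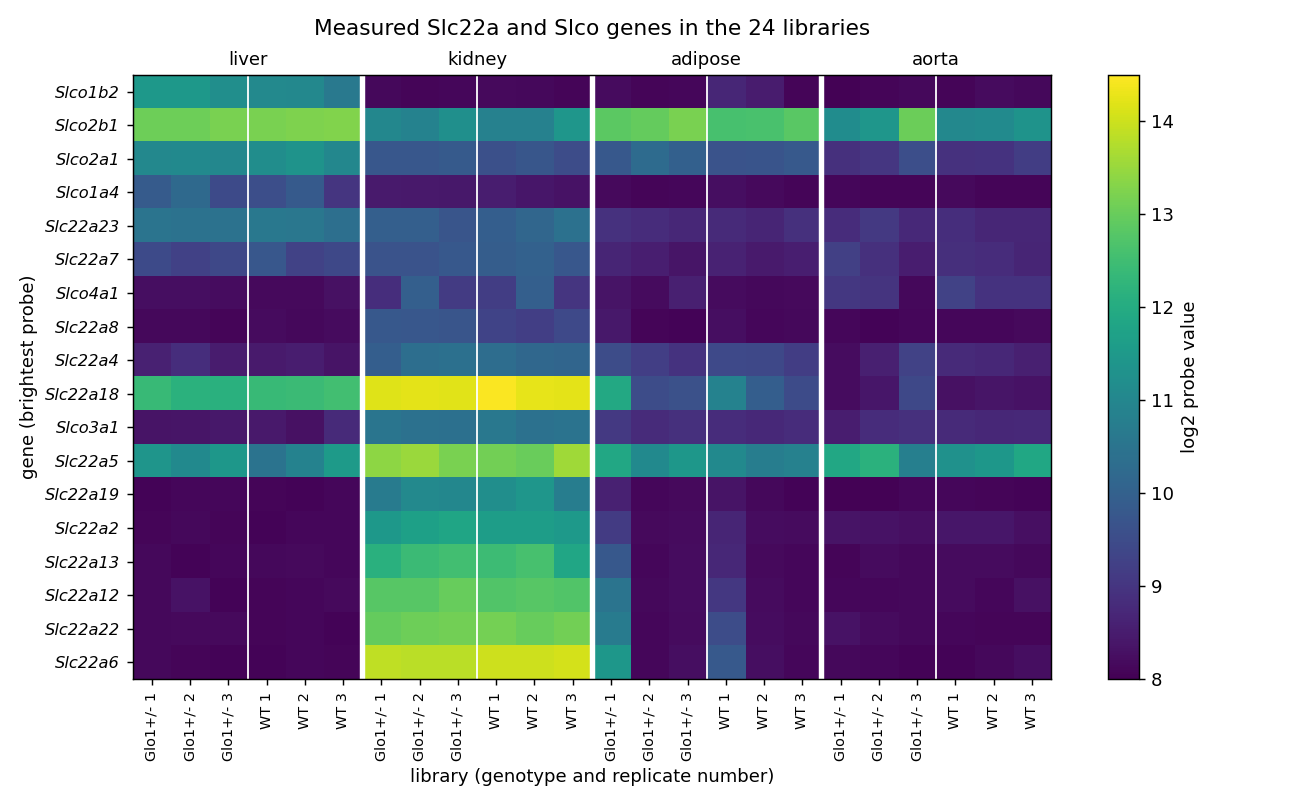
Log2 probe value (colour) of the 18 measured Slc22a and Slco genes (rows) in each of the 24 libraries (columns), by tissue and genotype. Kidney libraries are bright in the lower rows, where Slc22a6 reads 13.83 to 14.09, and Glo1+/- adipose 1 repeats these rows at a lower level (11.43 for Slc22a6).

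Which carriers separate liver from kidney was asked with 6 libraries of each tissue, genotypes pooled. In this comparison 4 of 27 members were higher in liver (background 3.94% of genes) and 12 of 27 were higher in kidney (background 4.79%), each at a limma adjusted p under 0.05 and a difference of at least 1 log2 unit. All 4 liver-high members were Slco genes, namely Slco1b2, Slco2b1, Slco2a1 and Slco1a4. Among the 12 kidney-high members were 10 Slc22a genes, together with Slco3a1 and Slco4a1. The tissue markers fitted the labels, with a mean over 18 hepatocyte genes (brightest Hpx and Apoa2) of 13.14 to 13.29 in liver and 8.87 to 10.06 in kidney. The mean over 11 proximal tubule genes (brightest Slc34a1 and Napsa) was 8.55 to 8.68 in liver and 12.11 to 12.17 in kidney. In bulk tissue, fewer cells of a type and less RNA per cell cannot be told apart.

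Of all members, Slc22a6, an organic anion transporter, had the widest measured gap. Slc22a6 (OAT1), the classical basolateral carrier of p-aminohippurate, ranged from 8.06 to 8.14 in liver (median 8.09) and from 13.83 to 14.09 in kidney (median 13.94). The liver values lay at the floor and the tissues did not overlap, with a difference of -5.85 ± 0.058 (SE, limma adjusted p = 1.04e-22). Differences against a probe at the floor can be understated.

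Slc22a8 (OAT3), the partner basolateral carrier of the proximal tubule, spanned 8.09 to 8.20 in liver and 9.21 to 9.80 in kidney, with medians of 8.14 and 9.59. Its difference was -1.39 ± 0.054, again without overlap. Slc22a22, a prostaglandin-specific organic anion transporter of mouse kidney, spanned 8.08 to 8.18 in liver and 12.96 to 13.13 in kidney (difference -4.94 ± 0.060). Slc22a19 (OAT5) had 8.07 to 8.12 in liver and 10.69 to 11.41 in kidney (difference -2.93 ± 0.092). All of these were at the floor in liver in every library.

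Urate and nicotinate carriers followed the same division. Slc22a12 (URAT1), which takes urate back from the tubular fluid, read 8.07 to 8.31 in liver and 12.742 to 13.0002 in kidney, a difference of -4.67 ± 0.066. Slc22a13 (OAT10) read 8.07 to 8.16 in liver and 11.84 to 12.60 in kidney, a difference of -4.21 ± 0.10. The kidney spread of Slc22a13 was the wider, with 11.84 in WT kidney 3 and 12.12 in Glo1+/- kidney 1 below the other libraries. Slc22a7 (OAT2) was measured in both tissues, with 9.25 to 9.75 in liver and 9.65 to 10.02 in kidney. These ranges overlapped, and the difference of -0.38 ± 0.080 passed the adjusted p (0.000716) but not the 1-unit minimum.

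Among cation and carnitine carriers, Slc22a2 (OCT2), the basolateral cation carrier of the tubule, ran from 8.06 to 8.14 in liver and from 11.47 to 11.82 in kidney (difference -3.52 ± 0.066). Slc22a5 (OCTN2), the high-affinity carnitine transporter, was measured in both tissues, with 10.48 to 11.54 (median 11.23) in liver and 13.01 to 13.56 (median 13.30) in kidney. It was higher in every kidney library than in any liver library, with a difference of -2.17 ± 0.14. Slc22a4 (OCTN1), an ergothioneine transporter, lay at 8.34 to 8.85 in liver and 9.93 to 10.41 in kidney (difference -1.67 ± 0.084). The imprinted Slc22a18, an orphan carrier of the distal chromosome 7 cluster, was measured in both, at 12.14 to 12.54 in liver and 14.19 to 14.46 in kidney (difference -1.93 ± 0.062). Slc22a23, another orphan member, was the exception in direction. It spanned 10.37 to 10.60 in liver and 9.72 to 10.43 in kidney, with the lowest liver library below the highest kidney one, and differed by 0.46 ± 0.083 (adjusted p = 0.000144). In WT libraries alone that difference was 0.34 (adjusted p = 0.0834).

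On the liver side, Slco1b2 (OATP1B2), the hepatocyte uptake carrier for bilirubin and bile acids in mouse, ranged from 10.62 to 11.47 in liver (median 11.14) and from 8.09 to 8.18 in kidney (median 8.13). Its difference was 3.02 ± 0.077 (adjusted p = 4.85e-17), with kidney at the floor. Slco2b1, a carrier of steroid sulphates with broad tissue range, read 13.05 to 13.26 in liver and 10.85 to 11.40 in kidney, a difference of 2.13 ± 0.090.

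Slco2a1, the prostaglandin transporter, read 10.999 to 11.333 in liver and 9.52 to 9.85 in kidney, a difference of 1.40 ± 0.069. Slco1a4 read 9.002 to 10.219 in liver and 8.32 to 8.52 in kidney, a difference of 1.23 ± 0.12 (adjusted p = 7.81e-08). None of the 4 genes overlapped between the tissues, and Slco1a4 had the widest liver range of them (SD 0.42, n = 6).

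The Slco genes that leaned to kidney were Slco3a1 and Slco4a1, carriers of prostaglandins and thyroid hormone. Slco3a1 read 8.30 to 8.76 in liver and 10.40 to 10.61 in kidney, a difference of -2.04 ± 0.074. Slco4a1 read 8.17 to 8.30 in liver and 8.85 to 9.97 in kidney, a difference of -1.13 ± 0.16 (adjusted p = 6.37e-06). Kidney values of Slco4a1 were uneven, with 9.97 in replicate 2 of both genotypes and 8.85 to 9.19 in the other kidney libraries. Leaving out replicate 2 of Glo1+/- or of WT kidney brought the Slco4a1 difference to -0.97 or -0.98, under the 1-unit minimum. Liver libraries lay on slides 1 and 2 and kidney libraries on slides 2 and 3. With slide as a block, and within slide 2 alone (4 libraries of each tissue), Slco1a4 differed by 0.98 and Slco4a1 by -0.85, under the 1-unit minimum, leaving 3 liver-high and 11 kidney-high members.

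**Figure D2:**
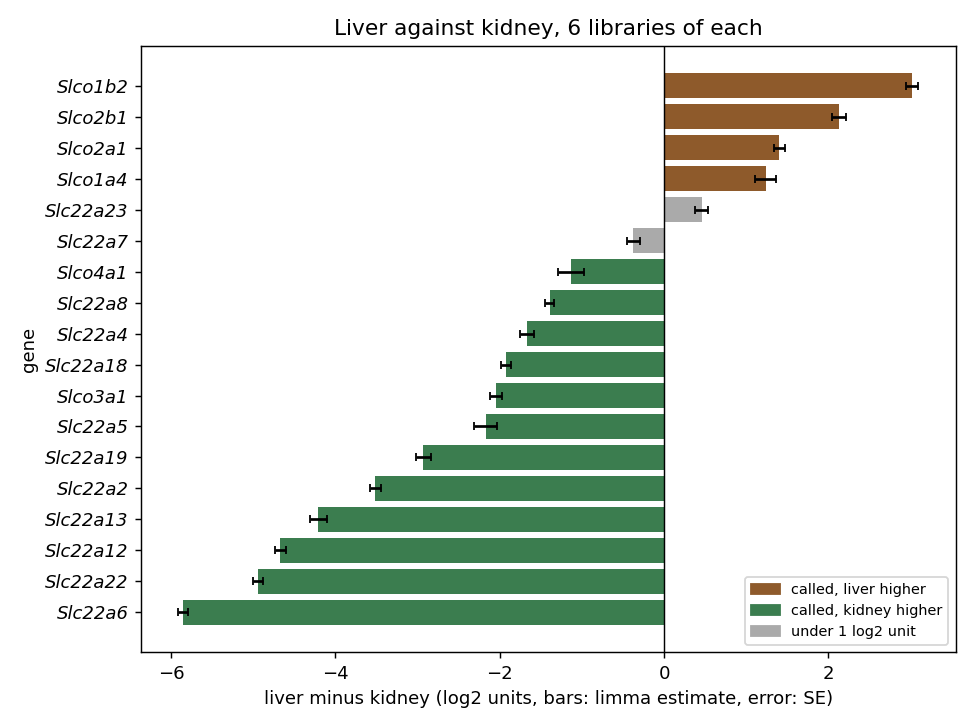
Liver minus kidney difference (log2 units, limma estimate with SE, 6 libraries per tissue) of the 18 measured genes. Bars to the right are higher in liver, the called ones from 1.23 for Slco1a4 to 3.02 for Slco1b2. Bars to the left are higher in kidney, down to -5.85 for Slc22a6. Grey bars are under 1 log2 unit, among them Slc22a23 to the right at 0.46.

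The other probes of a gene mostly carried less signal. For 10 members with more than 1 probe, the brightest was used. A second Slc22a13 probe averaged 8.22 in liver and 10.78 in kidney, and a second Slc22a19 probe 8.10 and 10.02, so both ran the same way as the brightest. Second probes of Slc22a18, Slc22a23, Slco1a4 and Slco1b2 stayed near the floor in every tissue, with tissue means of 8.07 to 8.19. The second Slco4a1 probe was also near the floor, at 8.22 in liver and 8.14 in kidney, and did not show the kidney lean of the brightest.

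Partners of these carriers split between the tissues as well. Of a list of 24 efflux and partner transporters, 23 were on the array. Of these, 6 were higher in liver (background 3.94% of genes), 6 higher in kidney (background 4.79%) and 11 neither. Those higher in liver were Abcb4, Abcb11, Abcc3, Abcc6, Slc17a4 and Slc2a9. The canalicular phospholipid flippase Abcb4 differed by 4.70 ± 0.092, the sinusoidal exporter Abcc3 by 3.91 ± 0.070 and the bile salt export pump Abcb11 by 3.38 ± 0.078. Kidney-high were Slc47a1, Slc51a, Slc51b, Slc17a3, Slc13a3 and Pdzk1. Slc51a and Slc51b, the subunits of the basolateral organic solute exporter, differed by -4.31 ± 0.073 and -3.16 ± 0.063. Slc13a3, the dicarboxylate carrier that feeds the OAT exchange reaction, differed by -3.58 ± 0.072, and the scaffold gene Pdzk1 by -2.32 ± 0.059. Of 18 listed transcription factors, 15 were on the array. Higher in liver were 3 (background 3.94% of genes), namely Nr1i3 (3.42 ± 0.069), Nr1i2 (2.14 ± 0.064) and Cebpa (1.85 ± 0.056). None was higher in kidney by 1 unit, and Hnf4a averaged 12.21 in liver and 12.40 in kidney.

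Across all 4 tissues, 10 members were highest in kidney by at least 1 log2 unit over each other tissue (background 2.36%). They were Slc22a2, Slc22a5, Slc22a6, Slc22a8, Slc22a12, Slc22a13, Slc22a18, Slc22a19, Slc22a22 and Slco3a1. Liver was highest for 3 members (background 2.51%), Slco1a4, Slco1b2 and Slco2a1. Adipose tissue and aorta were highest for 0 members by limma (background 0.880% and 0.753%). No tissue was highest by this rule for the remaining 14 members.

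Slco2b1 was shared between liver and adipose tissue. It ran 12.60 to 13.19 in adipose tissue and 13.05 to 13.26 in liver, with overlapping ranges and a difference of -0.32 for adipose minus liver (adjusted p = 0.247). Slc22a5 ran 10.76 to 11.89 in adipose tissue, 10.48 to 11.54 in liver and 10.81 to 12.15 in aorta, and these 3 ranges overlapped, all below the kidney range. In order of means, Slc22a5 stood highest in kidney (13.30), then aorta (11.58), adipose tissue (11.19) and liver (11.13). In Glo1+/- aorta 3, where the brown adipocyte mean was 8.80, Slc22a5 read 10.81. It read 11.30 to 12.15 in the other aorta libraries, where that mean was 12.54 to 12.86. The part of brown adipocytes in the aorta level of Slc22a5 was not tested. Slco2a1 had means of 11.11 in liver, 9.87 in adipose tissue, 9.71 in kidney and 9.09 in aorta, of which adipose tissue and kidney did not differ beyond their spread (difference 0.16, adjusted p = 0.246).

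Aorta against adipose tissue gave 0 members higher in aorta (limma, background 1.90%) and 2 higher in adipose tissue (background 2.09%), Slc22a18 and Slco2b1. Slco2b1 had 11.17, 11.41 and 13.04 in Glo1+/- aorta and 11.04, 11.11 and 11.34 in WT aorta. In adipose tissue it had 12.86, 12.96 and 13.19 in Glo1+/- and 12.60, 12.63 and 12.84 in WT. The 13.04 belongs to the library labelled Glo1+/- aorta 3, which also read 12.48 for adipocyte markers against 11.46 to 11.63 in the other aorta libraries. The difference was -1.33 ± 0.26 (adjusted p = 0.00561), and -1.62 without that library.

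Slc22a18 ran from 8.22 to 9.40 in aorta and from 9.49 to 11.93 in adipose tissue, with -1.72 ± 0.40 between them (adjusted p = 0.0116). Its highest aorta value was again Glo1+/- aorta 3 (9.40) and its highest adipose values those of the libraries labelled 1 (11.93 in Glo1+/- and 10.87 in WT). With these 3 libraries left out, Slc22a18 differed by -1.32, Slco2b1 by -1.68 and Slc22a5 by 0.74 (adjusted p = 0.00268), against 0.39 (adjusted p = 0.256) with all libraries. Slco2a1 differed by -0.78 ± 0.12 (adjusted p = 0.00306), Slc22a4 by -0.59 ± 0.16 (adjusted p = 0.022) and Slco4a1 by 0.63 ± 0.15 (adjusted p = 0.0114), all under 1 unit. Adipose libraries were all on slide 1 and aorta libraries all on slide 3, so slide and tissue cannot be told apart here.

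Kidney-type members appeared in adipose libraries with other kidney transcripts. Slc22a6 read 11.43, 8.10 and 8.23 in Glo1+/- adipose libraries 1 to 3 and 9.82, 8.25 and 8.12 in WT adipose libraries 1 to 3. Slc22a12 read 10.51, 8.14 and 8.23 in Glo1+/- and 9.06, 8.19 and 8.11 in WT, and Slc22a22 read 10.70, 8.13 and 8.20 in Glo1+/- and 9.51, 8.22 and 8.14 in WT. Both libraries labelled 1 stood above the others, and the Glo1+/- one above the WT one. The proximal tubule mean was 11.14, 8.91 and 9.38 in Glo1+/- and 10.42, 9.21 and 8.95 in WT, with Slc34a1, a phosphate carrier of the proximal tubule, at 14.36 and 13.29 in the libraries labelled 1. Slco1b2 read 8.701 and 8.502 in WT adipose 1 and 2, where the hepatocyte mean was 11.96 and 11.72, and 8.08 to 8.18 in the other adipose libraries, where that mean was 8.96 to 10.68. The source of these kidney and liver transcripts, and their part in adipose values, was not tested.

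**Figure D3:**
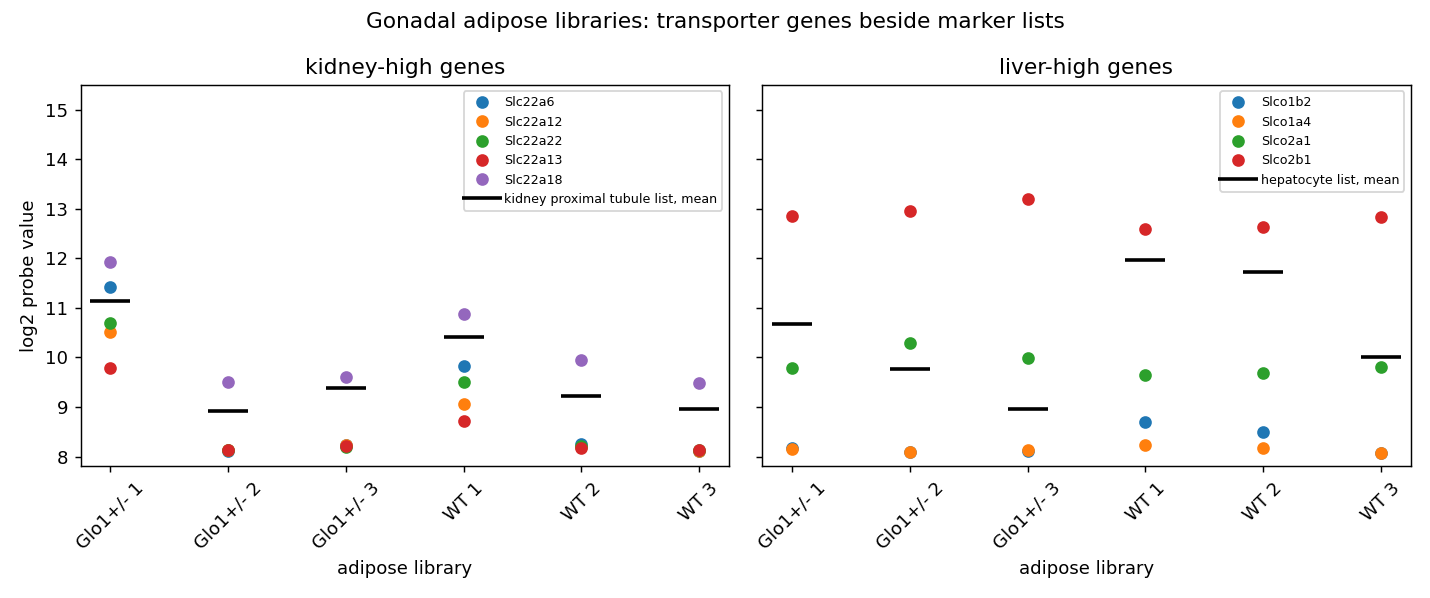
Log2 probe values of kidney-high genes (left) and liver-high genes (right) in the 6 adipose libraries, with the mean of the matching marker list as a black bar. Slc22a6 stands at 11.43 and 9.82 in the libraries labelled 1 of Glo1+/- and WT, and at 8.10 to 8.25 in the other 4.

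In kidney, loss of 1 Glo1 allele went with higher Slc22a8, and this was the only member called in any tissue. Slc22a8 read 9.80, 9.76 and 9.72 in Glo1+/- kidneys and 9.31, 9.21 and 9.45 in WT kidneys. The groups did not overlap and the lowest Glo1+/- library lay above the highest WT library. Slc22a8 rose by 0.44 ± 0.085 log2 units (95% interval 0.25 to 0.62, 1.35-fold, limma adjusted p = 0.0487), so 1 of 27 members was called against a background of 0.476% of genes (0.265% higher in Glo1+/-). The proximal tubule mean was 12.15 to 12.16 in Glo1+/- and 12.11 to 12.17 in WT kidneys. Of the other marker lists, the distal nephron mean was 11.28 to 11.39 in Glo1+/- and 11.36 to 11.62 in WT kidneys, and the smooth muscle mean 9.23 to 9.46 in Glo1+/- and 9.42 to 9.73 in WT kidneys, both with overlap. In single WT kidneys, the hepatocyte mean reached 10.06 (WT 1, against 8.87 to 9.06), the brown adipocyte mean 10.12 (WT 2, against 9.37 to 9.56) and the adipocyte mean 9.20 (WT 3, against 8.57 to 8.88). Of 8 measured distal nephron genes, limma called 0, and 3 had an unadjusted p under 0.05, Pvalb (-0.45), Aqp3 (-0.34) and Scnn1g (-0.26). Their part in the Slc22a8 difference was not tested. The call sat at the threshold: it was lost on leaving out WT kidney 1 (adjusted p = 0.178), WT kidney 2 (0.199) or Glo1+/- kidney 1 (0.129), 2 (0.13) or 3 (0.202), and kept without WT kidney 3 (0.0291), with differences of 0.38 to 0.50. WT kidneys were all on slide 2 with Glo1+/- kidney 1, and within that slide, with 1 Glo1+/- library assumed to vary like the 3 WT ones, and with slide as a block, the difference was 0.48 (adjusted p = 0.43 within the slide and 0.294 with the block).

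The neighbouring Slc22a6 did not follow. It read 13.89, 13.84 and 13.83 in Glo1+/- kidneys and 14.01, 14.00 and 14.09 in WT kidneys. These groups did not overlap either, in the other direction, with -0.18 ± 0.060 (adjusted p = 0.331). Slco2a1 read 9.77, 9.77 and 9.85 in Glo1+/- kidneys and 9.60, 9.74 and 9.52 in WT kidneys, a difference of 0.18 ± 0.086 (adjusted p = 0.545). Slc22a18 read 14.19, 14.22 and 14.20 in Glo1+/- kidneys and 14.46, 14.26 and 14.22 in WT kidneys, groups that nearly met at 14.22, with a difference of -0.11 ± 0.067 (adjusted p = 0.635). In all, 4 of the 16 measured members did not overlap in kidney, against 25.2% of all measured genes, and the median difference of the measured members was -0.02 against -0.0013 over all measured genes. The kidney differences of the remaining measured members ran from -0.29 for Slc22a23 (adjusted p = 0.479) to 0.14 for Slc22a5 (adjusted p = 0.764), with overlapping groups. Probes of Slc22a5 differed in size, at 0.14 for the brightest and 0.37 and 0.35 for the others, and a second Slc22a13 probe gave -0.34 where the brightest gave 0.07.

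**Figure D4:**
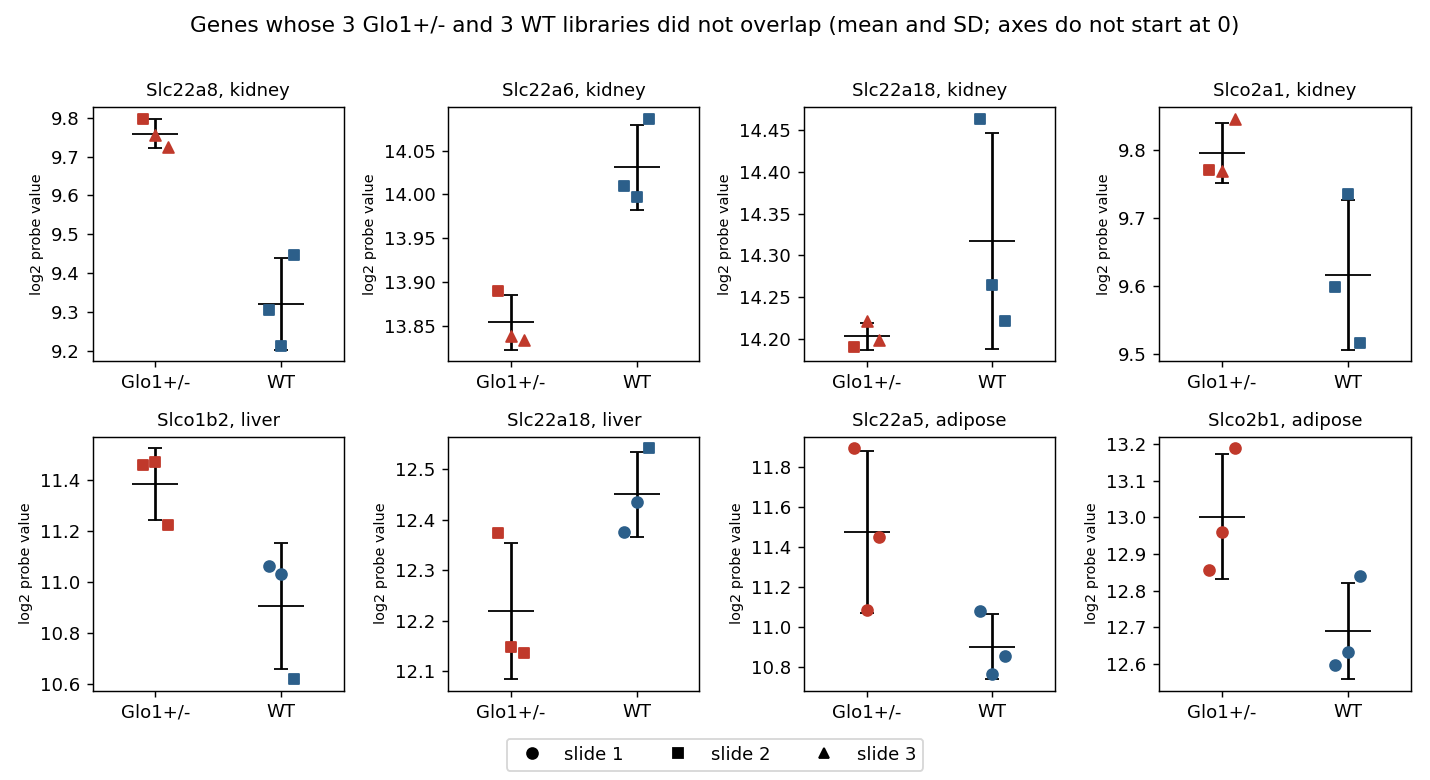
Log2 probe values per library for the 8 gene and tissue pairs in which the 3 Glo1+/- (left, red) and 3 WT (right, blue) libraries did not overlap, with mean and SD, and marker shape giving the slide. Slc22a8 in kidney has 9.72 to 9.80 in Glo1+/- and 9.21 to 9.45 in WT.

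In liver, limma called 0 of 27 members between genotypes, against a background of 0.735% of genes called. At an unadjusted p under 0.05 there were 2 members, and the share of all genes was not counted. Slco1b2 read 11.46, 11.47 and 11.22 in Glo1+/- livers and 11.06, 11.03 and 10.62 in WT livers. Every Glo1+/- value lay above every WT value, with a difference of 0.48 ± 0.13 (95% interval 0.20 to 0.76, adjusted p = 0.132). Liver libraries were split over slides: WT 1 and 2 on slide 1, and WT 3 with all Glo1+/- livers on slide 2. Within slide 2, where WT 3 alone stood for WT and is assumed to vary like the Glo1+/- group, Slco1b2 differed by 0.76 (adjusted p = 0.000921), Slco1a4 by 0.85 (adjusted p = 0.0108) and Slco3a1 by -0.39 (adjusted p = 0.0356), against 0.37 for Slco1a4 and -0.13 for Slco3a1 over all 6 livers. In that fit 7.08% of all genes were called, and slide as a block gave the same differences and 3 calls (5.75% of genes). Without WT liver 3, Slco1b2 differed by 0.34 (adjusted p = 0.0811), and Slc22a5 was called at 0.62 (adjusted p = 0.0108), in a fit that called 3.01% of genes. With all 6 livers Slc22a5 differed by 0.33 (adjusted p = 0.566), and within slide 2 by -0.24, the opposite sign. Other probes of Slc22a5 gave 0.32 and 0.32 with all 6 livers (adjusted p = 0.444 and 0.119).

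Slc22a18 read 12.37, 12.15 and 12.14 in Glo1+/- livers and 12.37, 12.43 and 12.54 in WT livers. The groups nearly met at 12.37 without overlapping, with -0.23 ± 0.10 (adjusted p = 0.401). Slco1a4 read 9.871, 10.219 and 9.454 in Glo1+/- livers and 9.567, 9.853 and 9.002 in WT livers, which overlapped (0.37 ± 0.20, adjusted p = 0.505). Thus 2 of 8 measured members did not overlap in liver, against 27.4% of measured genes, and their median difference was -0.08 against -0.02 over all measured genes. The hepatocyte mean was 13.14 to 13.20 in Glo1+/- and 13.24 to 13.29 in WT livers, the endothelium mean 9.35 to 9.41 in Glo1+/- and 9.58 to 9.81 in WT, and the smooth muscle mean 8.63 to 8.70 in Glo1+/- and 8.82 to 9.02 in WT. The adipocyte mean was 8.70 to 8.82 in Glo1+/- and 8.58 to 8.69 in WT livers. Limma called 2 of 16 measured hepatocyte genes, both lower, Alb (-0.67) and Cyp1a2 (-0.60), while the median difference of the list was -0.03. Acta2 of the smooth muscle list was called lower (-0.69) and Pnpla2 of the adipocyte list higher (0.53), against 0.735% of all genes called. The part of these markers in the liver differences was not tested.

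Adipose tissue had 0 of 27 members called by limma (background 0.00603% of genes called). At an unadjusted p under 0.05 there were 4 members, 2 of them measured, and the share of all genes was not counted. Slc22a5 read 11.89, 11.08 and 11.45 in Glo1+/- and 11.08, 10.76 and 10.86 in WT libraries, a difference of 0.58 ± 0.20 (adjusted p = 0.385). The groups did not overlap but nearly met, and without Glo1+/- adipose 1, the library with the highest kidney markers, the difference was 0.37. Other probes of Slc22a5 gave 0.35 and -0.06 in adipose tissue, with overlap (adjusted p = 0.547 and 0.816), so the probes differed in sign. Slco2b1, with the adipose values given above, differed by 0.31 ± 0.12 (adjusted p = 0.397), without overlap. So 2 of 5 measured members did not overlap, against 25.3% of measured genes. Without WT adipose 3, Slco1b2, not measured in adipose tissue (mean 8.28), was called at -0.47 (adjusted p = 0.0435). That fit called 0.802% of genes, and its WT side was WT adipose 1 and 2, the libraries with the highest hepatocyte means. In aorta 0 of 27 members were called by limma (background 0% of genes called), and 1 unmeasured member had an unadjusted p under 0.05. Of the 3 measured members, 0 were free of overlap, against 10.7% of measured genes. The largest aorta difference among them was that of Slco2b1, 0.71 ± 0.45 (adjusted p = 0.948), with 13.04 in Glo1+/- aorta 3.

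**Figure D5:**
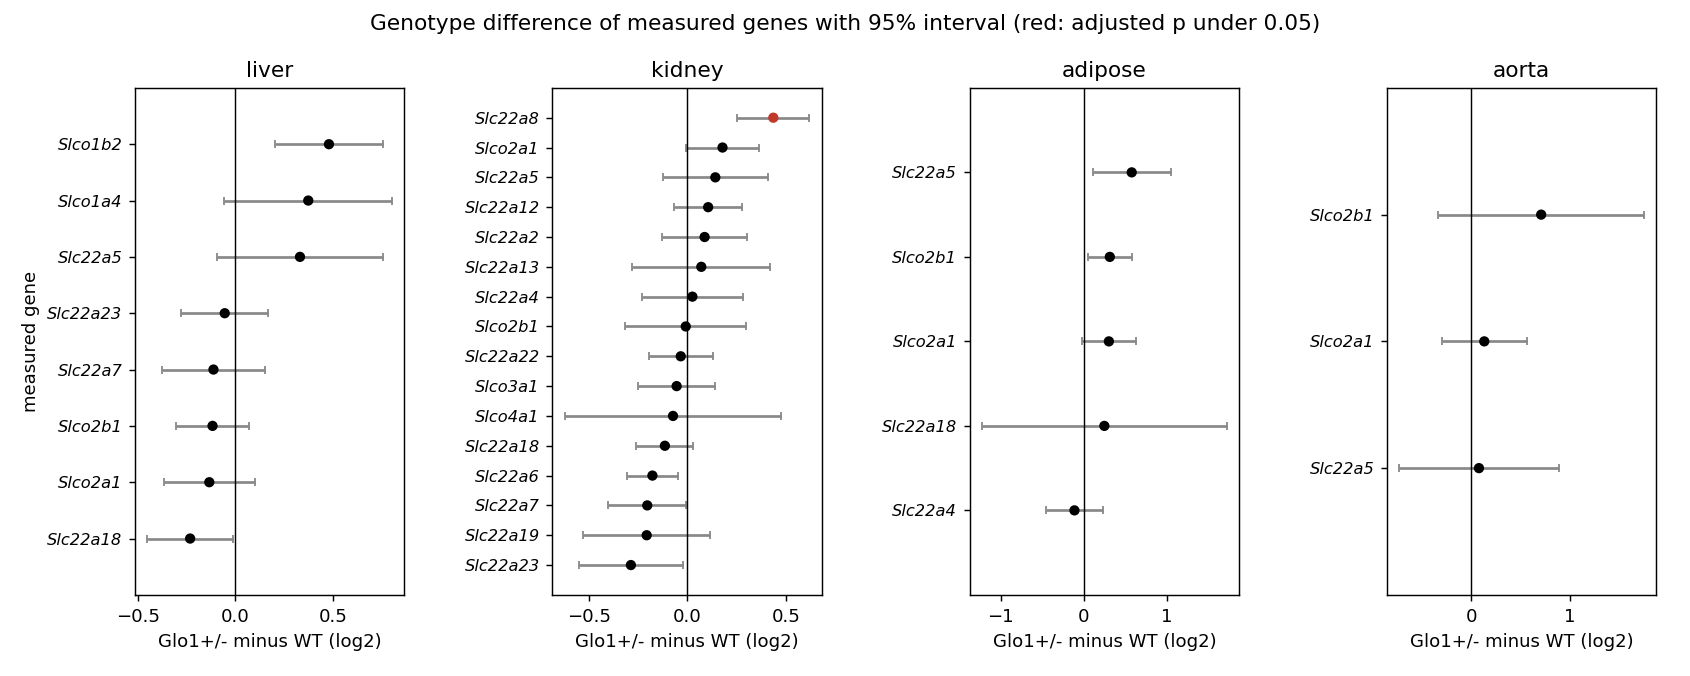
Glo1+/- minus WT difference (log2, limma estimate with 95% interval, 3 libraries per group) of the genes measured in each tissue. Slc22a8 in kidney (0.44, interval 0.25 to 0.62) is the gene in red, called at an adjusted p under 0.05, and Slco1b2 in liver stands at 0.48 (interval 0.20 to 0.76).

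Over all 24 libraries, the average genotype effect gave 0 calls among the 27 members (limma, background 0.331% of genes called). At an unadjusted p under 0.05 there was 1 member. The test of a genotype effect that differs between tissues also gave 0 (background 0.301% called), with 2 members at an unadjusted p under 0.05. For both tests, the share of all genes at an unadjusted p was not counted. Slc22a8 had an interaction adjusted p of 0.0959, with differences of -0.05 in liver, 0.44 in kidney, 0.03 in adipose tissue and -0.03 in aorta. It passed without Glo1+/- adipose 1 (0.0141) and without Glo1+/- aorta 3 (0.0479). For Slco1b2 the interaction adjusted p was 0.171, with differences of 0.48 in liver, -0.01 in kidney, -0.30 in adipose tissue and -0.05 in aorta, and it passed without WT adipose 3 (0.00876).

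Few partner genes were called between genotypes. Of the 23 efflux and partner transporters, 12 were measured in liver and 1 was called (background 0.735% of all genes called). At an unadjusted p under 0.05 there were 4 of these 12, and the share of all genes was not counted. Abcb11, the bile salt export pump, read 11.28, 11.23 and 11.15 in Glo1+/- livers and 11.86, 12.06 and 11.54 in WT livers, and fell by 0.60 ± 0.13 (adjusted p = 0.0497). That call was lost on leaving out any liver library other than WT 3 (adjusted p = 0.104 to 0.249), as well as without the variance trend (0.149) and with only probes above the median (0.0589), and within slide 2, against WT 3 alone, the difference was -0.31. In kidney 0 of 10 measured list members were called by limma (background 0.476% of all genes called). Of these 10, 2 had an unadjusted p under 0.05, with Slc2a9 at 0.25, Slc51a at -0.23 and Abcc2 at -0.18. Adipose tissue and aorta had 0 called of 6 and of 4 measured (1 and 0 of these at an unadjusted p under 0.05). Among the measured genes, the smallest p-values in adipose tissue belonged to Abcb1b, Abcc3 and Pdzk1. Their differences were 0.32, -0.31 and 1.13 (limma adjusted p = 0.407, 0.535 and 0.763). Pdzk1 read 12.9986, 8.25 and 11.40 in Glo1+/- and 11.64, 9.28 and 8.34 in WT adipose libraries 1 to 3. Abcc3 was highest in WT adipose 1 and 2 (9.63 and 9.74), the libraries with the most liver transcripts. The part of kidney and liver transcripts in these differences was not tested. In aorta the smallest p-values belonged to Abcb1b (0.17), Slc47a1 (-0.47) and Abcc5 (-0.16), each with a limma adjusted p of 0.948.

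The transcription factor list was chosen with earlier results of these data known, so its calls are not independent of that choice. Among the 15 transcription factors, 9 were measured in liver, with 1 higher and 1 lower. The background was 0.735% of all genes called in liver and 0.476% in kidney. Nr1i3, the xenobiotic receptor CAR, read 12.07, 11.95 and 12.01 in Glo1+/- livers and 10.82, 11.22 and 11.05 in WT livers, and rose by 0.98 ± 0.11 (adjusted p = 0.00314). Bcl6, a repressor opposed to STAT5 targets, read 9.64, 9.70 and 10.73 in Glo1+/- livers and 11.79, 12.09 and 11.50 in WT livers, and fell by 1.77 ± 0.23 (adjusted p = 0.00418). Neither pair of groups overlapped. Both calls were lost without the variance trend of the fit (adjusted p = 0.0517 for Nr1i3 and 0.104 for Bcl6). Within slide 2, where WT 3 alone stood for WT, the differences were 0.96 and -1.47. In kidney 3 factors were measured, and Nr1h4, the bile acid receptor FXR, rose by 0.70 ± 0.084 (adjusted p = 0.00559). Its values were 13.28, 13.08 and 13.19 in Glo1+/- kidneys and 12.55, 12.36 and 12.53 in WT kidneys. The call was lost without the trend (adjusted p = 0.0523), and on slide 2, which holds 1 Glo1+/- kidney, the difference was 0.80. Nr1h4 was also higher in Glo1+/- liver, without overlap, but was not called there (0.40 ± 0.11, limma adjusted p = 0.158). Bcl6 fell by 1.23 ± 0.23 in kidney (adjusted p = 0.044), a call lost without any of WT kidney 1, 2 or 3 or Glo1+/- kidney 1 or 2 (adjusted p = 0.0606 to 0.151), without the trend (0.223) or with only probes above the median (0.0837). In adipose tissue and aorta 0 of 6 and 0 of 4 measured factors were called by limma (1 and 0 of these at an unadjusted p under 0.05), with Bcl6 at -1.40, Rxra at 0.21 and Cebpa at -0.14 in adipose tissue, and Bcl6 at -0.48, Stat5a at -0.14 and Nfe2l2 at 0.09 in aorta.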

How the data were processed

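The deposited table holds log2 values made by the authors from Illumina bead arrays. The tool listed in the submitters' processing notes is lumi 2.32.0, with background correction, transformation and normalization not given in the sources used here, so the scale may be a log2-like variance-stabilised one. Of 25697 probes, 23978 have 1 gene in the platform annotation and 1719 none. Symbols were checked against RefSeq genes of GRCm38.p6, where all 27 members matched. All arrays entered the fits, without detection calls.

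Tests used limma 3.58.1 in R 4.3.3 (lmFit, eBayes with trend, 2-sided), with Benjamini-Hochberg adjustment over all probes and a call at an adjusted p under 0.05, and were tested on simulated data. Genotypes were compared within each tissue over its 6 arrays, tissues over 12, and average, interaction and highest-tissue fits over 24. Errors after ± are SE. Precision is limited by 3 arrays per group, and an exact test of 3 against 3 cannot go below p = 0.1. Slides come from the array codes in the labels.

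Named are all members measured in a tissue. For genotype, called members are named with up to 3 higher and 3 lower measured members per tissue with the largest change and no overlap. Genes of the efflux and partner list and of the transcription factor list are named if called, otherwise up to 3 per tissue by smallest p. Marker lists are hepatocyte, proximal tubule, distal nephron, adipocyte, brown adipocyte, smooth and skeletal muscle, endothelium, macrophage, T cell and thymocyte, epididymis and sex chromosome. Distal nephron means were 11.28 to 11.62 in kidney and at most 9.85 elsewhere, and macrophage means 10.93 to 11.04 in Glo1+/- and 11.13 to 11.25 in WT adipose tissue. The members and lists were chosen with earlier results of these data known. Same-numbered replicates deviated together in adipose tissue (correlations 0.70, 0.17 and 0.40), which meets the rule for pairing, and not in every pair of liver (0.08, 0.06 and 0.26), kidney (0.06, -0.02 and -0.01) or aorta (0.13, -0.15 and -0.06). Alternatives were leaving out each array, no trend, a filter on dim probes, quantile normalization, replicate and slide blocks, other probes and other minimum differences.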

Additional observations from a re-analysis of the deposited data

How the results depend on the processing

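Of 938 values under alternatives, 2 changed sign, both of Slc22a5 between genotypes in liver (-0.24 with slide as a block and on slide 2, against 0.33). Members with no genotype value in the text, and single probes other than the brightest, are not among these values. Of 302 counts, 276 stayed within 1.5 times the reported count and 26 moved, and of 636 values of named genes, 586 kept their direction and side of the threshold, 36 lost the call and 12 gained one. Members called between genotypes in kidney numbered 0 to 1 with each array left out, and 0 without the trend, with only probes above the median, with the replicate block, with slide as a block and on slide 2 alone, where 4 arrays remained; Slc22a8 kept a difference of 0.38 to 0.50. With the replicate block in kidney its adjusted p was 0.0702, without the trend 0.0846 and above the median 0.0577. In liver the count was 0 to 1 with each array left out, the 1 in a fit that called 3.01% of genes. It was 1 with the replicate block (Slco1b2, adjusted p = 0.0442, 1.24% of genes called) and 3 with slide as a block (5.75% of genes called). In adipose tissue the count was 0 to 1 with each array left out, the 1 in a fit that called 0.802% of genes. The adipose replicate block changed no other call, with 0 members called. Members whose genotype effect differed between tissues numbered 0 to 1 with each array left out and 1 with only probes above the median (Slc22a8, adjusted p = 0.0488). A minimum of 2 log2 units gave 2 liver-high members against kidney, 0 adipose-high members against aorta, 1 highest in liver and 6 highest in kidney. Other counts in this section are given without the share of all genes at the same setting. Measured members in adipose tissue numbered 13 at a mean of 8.5 and 3 at 10, and in aorta 9 at 8.5. Alternatives chosen after seeing the data left out Glo1+/- aorta 3 and both adipose libraries labelled 1, with 2 adipose-high members against aorta and 11 highest in kidney, or kept slide 2 alone for liver against kidney, with 3 and 11. The cause of these changes was not tested. Probes near the floor of 8 limit what dim members can show.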
